A study of Mus musculus with 15 samples.

Results

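The LIM and ankyrin-repeat load-sensing proteins are 10 genes of striated muscle that were chosen by name: *Csrp3*, *Fhl1*, *Fhl3*, *Ldb3*, *Ankrd1*, *Ankrd2*, *Ankrd23*, *Xirp1*, *Xirp2* and *Flnc*. The list was chosen with earlier results of these data known, so its counts and medians beside those of all tested genes only describe it. All 10 were found among the 12529 genes with values, and all 10 were among the 11674 genes whose mean level allowed a test. The values come from quadriceps, a mainly fast thigh muscle, of C57BL/6 mice in 3 groups with 5 RNA-seq libraries each. Ex mice were wild type and given running wheels. Per the study's methods they were male C57BL/6J, 8 weeks old at the start, kept in individual cages with free wheel access for 4 weeks, and harvested 4 to 6 hours after their last bout. mTg mice were sedentary and carried a transgene for the coactivator PGC1α (PGC1a Tg(+)) driven by the muscle creatine kinase promoter, which directs expression to muscle fibers. Per the methods they were male, and their age is not stated. Control mice were wild type and sedentary. The methods describe both wild-type littermates of mTg and purchased mice caged without wheels from the same age as Ex, all male, and do not state which of these gave the 5 Control libraries. The comparisons ask how chronic running (Ex vs Control) and PGC1α overexpression (mTg vs Control) each altered these genes, and how the 2 models differed (Ex vs mTg). No source states that each library came from a separate animal, so p-values measure the spread between these libraries, part of which may be technical.

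A LIM domain is a zinc-binding fold that docks onto other proteins, and ankyrin repeats are stacked helices that do the same. In striated muscle, proteins built from these folds sit at the Z-disc, where thin filaments of neighboring sarcomeres are anchored, and at the I-band part of titin, the spring-like giant protein of the sarcomere. Some of them also enter the nucleus, and several are known to be induced by stretch, overload or injury. They are therefore described as links between mechanical load and gene transcription. Here they fall into 4 groups: LIM proteins (*Csrp3*, *Fhl1*, *Fhl3* and the PDZ-LIM protein gene *Ldb3*), muscle ankyrin repeat proteins that bind titin (*Ankrd1*, *Ankrd2*, *Ankrd23*), Xin actin-binding repeat proteins (*Xirp1*, *Xirp2*), and filamin C (*Flnc*), an actin cross-linker that Xin proteins bind.

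Sequence just before annotated RefSeq starts of these genes is shown for sites of factors known to act in muscle or in response to load: the M-CAT element of TEAD factors (letters CATTCC), the CArG box of serum response factor and the MEF2 site. RefSeq promoters (GRCm38.p6, the assembly also called mm10) were found for 9 of the 10 genes, with 14 annotated starts, and both strands of the 250 bases before each start were searched. An M-CAT lay before *Ankrd1* (at 2 places), 1 of the starts of *Ankrd23* and *Flnc*. That is 3 of the 14 starts, and such letters occurred in 12.64% of all 32851 promoters searched in the same way. A CArG box lay before 1 of the starts of *Fhl1* and before *Ldb3* (3 of the 14 starts, against 1.47% of all promoters). A MEF2 site lay before *Xirp2* (1 of the 14 starts, against 2.92%). The windows below are 30 bases each, 5′ to 3′ on the gene's strand, with the motif in capitals. GGAATG is the M-CAT read on the opposite strand. The *Ankrd1*, *Ankrd23* and *Fhl1* windows lie inside the gene spans given with the values, before a RefSeq start within that span, and those of *Flnc*, *Ldb3* and *Xirp2* lie outside.
Ankrd1 (chr19:36120037-36120066, minus strand, motif from -210): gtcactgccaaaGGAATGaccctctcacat
Ankrd1 (chr19:36119950-36119979, minus strand, motif from -123): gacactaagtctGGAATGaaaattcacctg
Ankrd23 (chr1:36535842-36535871, minus strand, motif from -120): cccagtgggccaCATTCCcagaacggtatt
Flnc (chr6:29433140-29433169, plus strand, motif from -104): cgggccgggcggCATTCCtgggaggccggc
Fhl1 (chrX:56779571-56779600, plus strand, motif from -102): ccttggatcaCCTAAAATGGttaagaattt
Ldb3 (chr14:34588697-34588726, minus strand, motif from -35): gggttacagtCCATTTATGGgcgcagcaag
Xirp2 (chr2:67445918-67445947, plus strand, motif from -74): agctcagttcCTAAAAATAGgtgctaggtt
Positions count from the annotated start. The E-box of myogenic factors (CANNTG) lay before 8 of the 14 starts, which belong to 6 of the 9 genes, in a background of 66.22% of promoters. The ERR half-site TNAAGGTCA, bound by the estrogen-related receptors with which PGC1α acts, was before none of the 9, in a background of 1.14%. These matches describe letters in a short window and not binding.

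Each library had between 11475817 and 16917490 reads in the listed genes, and each of the 10 genes between 109 and 54911 reads in a library. By group the reads were 14098168 to 16876751 in Ex, 11475817 to 15381111 in mTg and 15686582 to 16917490 in Control. Every mTg library thus had fewer reads than every Control library, and the part of depth in the mTg changes was not tested. *Ppargc1a*, which encodes PGC1α, was 53.8 ± 2.84 FPKM in mTg, 6.31 ± 0.938 in Ex and 7.50 ± 3.04 in Control (SD, n = 5 each), and every mTg library exceeded every other library. FPKM scale reads to transcript length and library size, so that levels can be compared between genes. Defining genes of skeletal muscle were abundant in all libraries (*Acta1*, skeletal actin, averaged 24562 FPKM in Ex, 16264 in mTg and 24627 in Control). Of 10 such markers, 1 rose and 5 fell in Ex against Control (median log2 fold change -0.228), beside 10.4% of all tested genes called. In mTg 1 rose and 9 fell (median -0.471), beside 45.4%. *Myh4*, *Mylpf*, *Tnnt3*, *Tnni2* and *Atp2a1* are also in the fast fiber list used below, so the lists are not independent. Those that fell in Ex were *Ckm*, *Myh4*, *Tnnt3*, *Tnni2* and *Atp2a1*, while *Acta1*, *Ttn*, *Neb* and *Mylpf* were not called. These genes are named after their values were seen. The 5 that fell in Ex were 2 without the filter on low levels. They were also 2 with any 1 of Control replicates 1, 3 and 4 and Ex replicates 1, 3 and 4 left out, and 1 with the replicate number as a block. Of 6 heart muscle markers, 4 were not analysed here, and *Myh6* averaged 0.588 FPKM in Ex, 0.427 in mTg and 0.575 in Control. *Myl4*, named after its values were seen, averaged 4.32 FPKM in Ex, 4.75 in mTg and 5.86 in Control. Over all tested genes 629 rose and 586 fell in Ex against Control. With FPKM turned into TPM, which sum alike in all libraries, the split was 1224 and 208. The total of 1215 calls was 765 without Control replicate 3, 755 without Control replicate 4 and 767 without Ex replicate 3.

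**Figure D1:**
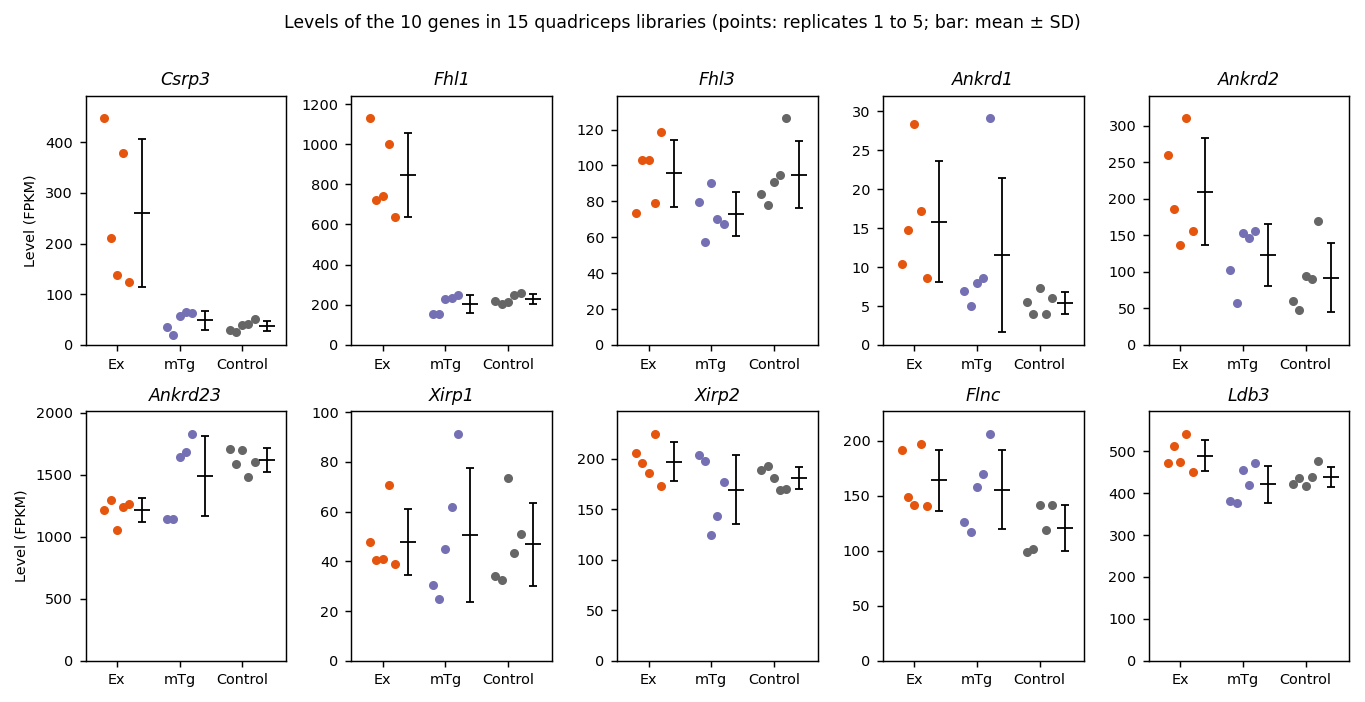
Levels in FPKM (vertical axes from 0) of the 10 genes in the 5 Ex, 5 mTg and 5 Control libraries. Points are libraries in the order of their replicate numbers and the black bar beside each group is its mean ± SD. For *Csrp3* and *Fhl1* every Ex library lies above every mTg and every Control library, and for *Ankrd23* every Ex library lies below every Control library.

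The 10 genes differed widely in abundance. *Ankrd23* was by far the most abundant in each group, at 1214 ± 95.2 FPKM in Ex, 1488 ± 322 in mTg and 1616 ± 95.0 in Control, where it ranked 27th of all genes. *Ankrd1*, its close relative, was the lowest of the 10 in each group. In Control the order from high to low was *Ankrd23*, *Ldb3*, *Fhl1*, *Xirp2*, *Flnc*, *Fhl3*, *Ankrd2*, *Xirp1*, *Csrp3* and *Ankrd1*. *Fhl3* and *Ankrd2* (94.8 ± 18.7 and 92.2 ± 47.3 FPKM) were closer together there than the SD of each, and so were *Xirp1* and *Csrp3* (46.8 ± 16.6 and 37.3 ± 10.1 FPKM). In Ex the order was *Ankrd23*, *Fhl1*, *Ldb3*, *Csrp3*, *Ankrd2*, *Xirp2*, *Flnc*, *Fhl3*, *Xirp1* and *Ankrd1*, so that *Csrp3* by its mean stood above 6 of the other genes there and above 1 in Control. The Ex means of *Ankrd2* (210 ± 73.1 FPKM), *Xirp2* (197 ± 19.6) and *Flnc* (164 ± 27.8) lay within the SD of *Csrp3* (260 ± 146). In Ex replicate 5 *Csrp3* was below all of these, at 125 FPKM.

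In Ex against Control, 5 of the 10 genes rose (*Csrp3*, *Fhl1*, *Ankrd1*, *Ankrd2*, *Flnc*), 1 fell (*Ankrd23*) and 4 did not pass the test (*Fhl3*, *Xirp1*, *Xirp2*, *Ldb3*). The threshold was an adjusted p under 0.05 in limma, a linear model fitted across all tested genes, and 10.4% of all tested genes passed it, 5.39% higher and 5.02% lower. With a change over 1.5-fold asked in addition, 4 of the 10 passed (*Csrp3*, *Fhl1*, *Ankrd1*, *Ankrd2*), beside 1.22% of all genes. Without Control replicate 1, Ex replicate 1 or Ex replicate 4, 3 of the 10 were called higher. The median log2 fold change was 0.30 over the 10 genes and -0.0056 over all tested genes. In mTg against Control none rose and 1 fell (*Fhl3*), although 45.4% of all tested genes passed (22.3% higher, 23.1% lower). None changed over 1.5-fold with a call, beside 12.9% of all genes. At an unadjusted p under 0.05, 2 were higher (*Ankrd1* and *Flnc*), and limma voom on reads recovered from the FPKM called 0 higher and 1 lower. Without mTg replicate 2, 3 were called higher (*Csrp3*, *Ankrd1*, *Flnc*) and none lower. The median was -0.021 over the 10 genes and -0.0211 over all genes. In Ex against mTg, 5 were higher (*Csrp3*, *Fhl1*, *Ankrd2*, *Fhl3*, *Ldb3*) and none was lower, also at an unadjusted p under 0.05 and with voom, beside 41.3% of all genes (20.7% higher, 20.7% lower). Of these calls 3 were over 1.5-fold (*Csrp3*, *Fhl1*, *Ankrd2*), beside 10.9% of all genes. Over all genes 2414 were higher and 2413 lower in Ex than in mTg, and 3042 and 1902 on the TPM scale. Both comparisons with Control share the 5 Control libraries. The RNA is of whole muscle, in which fewer cells of a type and less RNA per cell cannot be told apart.

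**Figure D2:**
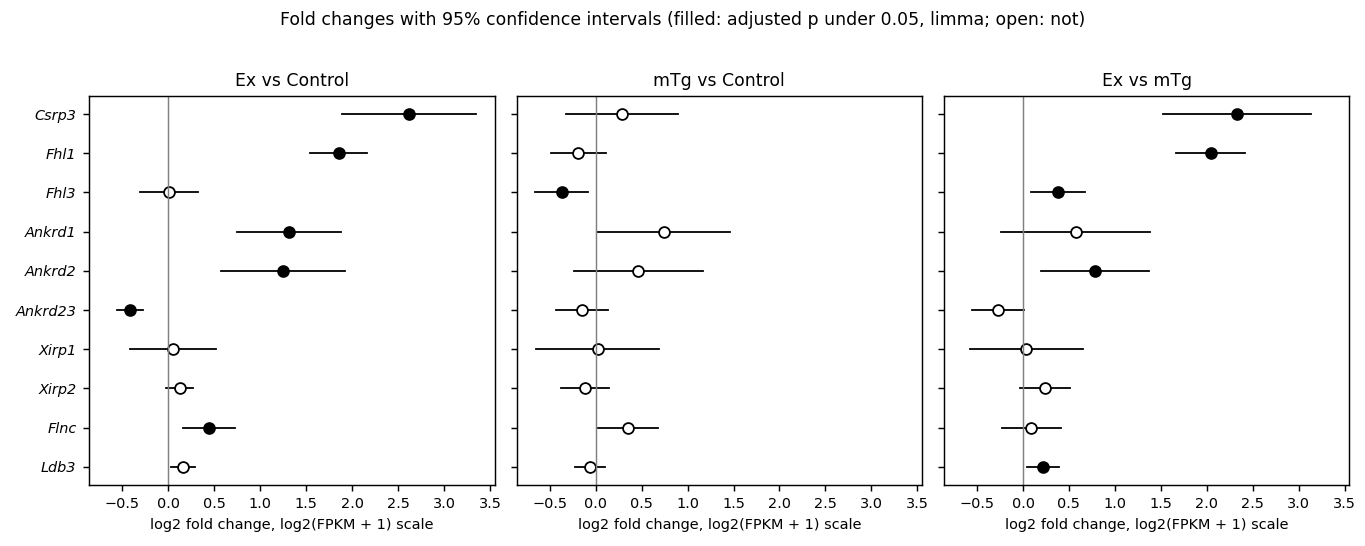
Fold changes on the log2(FPKM + 1) scale (horizontal axes) with 95% confidence intervals for Ex vs Control, mTg vs Control and Ex vs mTg. Filled points passed an adjusted p of 0.05 in limma. *Csrp3* and *Fhl1* lie farthest to the right in both comparisons of Ex, and in mTg vs Control the only filled point is *Fhl3*, at -0.37.

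*Csrp3* (chr7:48830398-48848033, minus strand, in GENCODE M21 on mm10) encodes muscle LIM protein, which binds α-actinin and telethonin at the Z-disc and is known for causing cardiomyopathy when mutated. Its level was 447, 212, 137, 379 and 125 FPKM in Ex replicates 1 to 5, 36.0, 20.5, 57.4, 64.2 and 63.5 in mTg and 30.4, 25.0, 38.7, 41.1 and 51.2 in Control. Ex did not overlap with either other group, and Ex replicates 1 and 4 stood well above the other Ex libraries. The mean was 6.97-fold higher in Ex than in Control, and the log2 fold change was 2.62 ± 0.33 (SE, adjusted p = 0.000703). Against mTg it was 5.38-fold higher, with a log2 fold change of 2.33 ± 0.37 (SE, adjusted p = 0.000206). Between mTg and Control the change was 0.29 ± 0.28 (SE, adjusted p = 0.425), with a 95% confidence interval from -0.32 to 0.90, and the group means were 48.3 ± 19.3 and 37.3 ± 10.1 FPKM. Without mTg replicate 2, the lowest library of all for this gene, the mTg change was 0.56 (adjusted p = 0.0426).

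*Fhl1* encodes a protein made almost wholly of LIM domains that binds titin and is mutated in reducing body myopathy. It was 1129, 722, 740.2, 999.9 and 638 FPKM in Ex, 156, 152, 229, 234 and 249 in mTg and 219, 204, 213, 249.7 and 259 in Control. The lowest Ex library was more than 2-fold above the highest library of the other groups. The mean was 3.69-fold higher in Ex than in Control, with a log2 fold change of 1.85 ± 0.14 (SE, adjusted p = 2.61e-05), the smallest adjusted p of the 10 genes. Against mTg it was 4.14-fold higher (2.04 ± 0.17 (SE), adjusted p = 6.08e-07). Between mTg and Control the difference was -0.19 ± 0.14 (SE, adjusted p = 0.284), with an interval from -0.49 to 0.11. In the annotation the gene (chrX:56731787-56793346) overlaps a small nuclear RNA gene on its strand.

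*Fhl3* (chr4:124700701-124708611), a paralog known to bind actin and the myogenic factor MyoD, did not follow *Fhl1*. It was 73.7, 103, 103, 79.2 and 119 FPKM in Ex, 79.7, 57.3, 90.2, 70.2 and 67.4 in mTg and 84.2, 78.3, 90.8, 94.7 and 126 in Control, with all groups overlapping. Ex and Control had nearly the same mean (95.6 ± 18.7 and 94.8 ± 18.7 FPKM), with a difference of 0.01 ± 0.14 (SE, adjusted p = 0.976) and an interval from -0.30 to 0.33. In mTg it fell by 0.37 ± 0.13 on the log2 scale (adjusted p = 0.0380), and it was higher in Ex than in mTg by 0.38 ± 0.14 (SE, adjusted p = 0.0412). Both calls lay near the threshold. With any 1 library left out, the change in mTg stayed between -0.45 and -0.26, and that of Ex against mTg between 0.30 and 0.47. The first call was lost without any 1 of Control replicates 3, 4 and 5 or mTg replicates 2, 4 and 5 (adjusted p up to 0.0885). The second was lost without any 1 of Ex replicates 2, 3 and 5 or mTg replicates 2, 4 and 5 (up to 0.103).

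The makeup of the *Fhl1* and *Fhl3* pair also differed. *Fhl1* was 89.2% ± 3.96 of their summed FPKM in Ex, 73.2% ± 4.87 in mTg and 70.9% ± 2.26 in Control (SD, n = 5 each). Ex libraries lay between 84.3% and 93.9%, above all mTg (66.2% to 78.7%) and all Control libraries (67.2% to 72.5%). The difference was 18.3 percentage points from Control and 16.0 from mTg, with p = 0.00794 for both in two-sided exact permutation, the lowest p that 5 against 5 libraries can reach, and an adjusted p of 0.0179 over 9 share tests. Between mTg and Control it was 2.36 points (exact permutation test, p = 0.357, adjusted p = 0.536).

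*Ldb3* (chr14:34526603-34588682) encodes ZASP, also called Cypher, a PDZ-LIM protein that ties α-actinin to the Z-disc. It varied little, from 450.0 to 541 FPKM in Ex, 377 to 473 in mTg and 416 to 478 in Control. In Ex against Control the difference was 0.16 ± 0.06 (SE, adjusted p = 0.111), which passed the test only after rescaling to TPM (0.26, adjusted p = 0.0150). It was higher in Ex than in mTg by 0.22 ± 0.08 (SE, adjusted p = 0.0424), a call lost without any 1 of Ex replicates 1 to 4 or mTg replicates 1, 2 and 4 (adjusted p up to 0.104), and after scaling by the median of ratios (0.0516). The mTg difference from Control was -0.06 ± 0.08 (SE, adjusted p = 0.542).

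The muscle ankyrin repeat proteins bind the N2A part of titin, close to where the protease calpain 3 docks, and the 3 genes did not move as a unit. *Ankrd1* (chr19:36111961-36120099) encodes CARP, a protein abundant in heart and induced in stretched or injured skeletal muscle. It was 10.4, 14.7, 28.4, 17.2 and 8.55 FPKM in Ex, 6.94, 5.07, 8.01, 8.64 and 29.1 in mTg and 5.53, 4.04, 7.34, 3.99 and 6.05 in Control. Every Ex library exceeded every Control library, and in mTg replicate 5 stood at more than 3 times the next library. The mean was 2.94-fold higher in Ex than in Control (1.31 ± 0.26 (SE), adjusted p = 0.00871). Between mTg and Control the fold of means was 2.14, and the change of 0.74 ± 0.34 (SE, adjusted p = 0.0883) did not pass the test. It became 0.94 without mTg replicate 2 (adjusted p = 0.0362) and 0.36 without mTg replicate 5. Ex and mTg differed by 0.57 ± 0.38 (SE, adjusted p = 0.246), and by 0.95 without mTg replicate 5 (adjusted p = 0.0130).

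*Ankrd2* (chr19:42036000-42045110), encoding a relative that is found mainly in slow fibers and is known to be induced by stretch, was 259, 186, 136, 310.3 and 156 FPKM in Ex, 102, 57.8, 153, 146 and 157 in mTg and 59.7, 48.3, 93.9, 89.8 and 169 in Control. Control replicate 5 lay inside the range of Ex, and so the groups overlapped. The mean was 2.28-fold higher in Ex than in Control (1.25 ± 0.31 (SE), adjusted p = 0.0253) and 1.70-fold higher than in mTg (0.78 ± 0.27 (SE), adjusted p = 0.0335). The call against Control was lost without Control replicate 1, Ex replicate 1 or Ex replicate 4 (adjusted p of 0.0579, 0.0612 and 0.0592), and the call against mTg was lost without Ex replicates 1, 2 or 4 or mTg replicates 1 or 2 (up to 0.0849) and in a fit on all 15 libraries (0.0572). Between mTg and Control the change was 0.46 ± 0.32 (SE, adjusted p = 0.267), with an interval from -0.24 to 1.16.

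*Ankrd23*, encoding the diabetes-related ankyrin repeat protein, was lower in Ex. It was 1214, 1299, 1053, 1241 and 1262 FPKM in Ex, 1146, 1141, 1644, 1683 and 1827 in mTg and 1709.7, 1588, 1701, 1478 and 1604 in Control. No Ex library reached the lowest Control library, while mTg split into replicates 1 and 2 near the Ex level and replicates 3 to 5 near or above the Control level. Its mean in Ex was 0.751 times that in Control, and it fell by 0.41 ± 0.07 on the log2 scale (adjusted p = 0.00283). The mTg change against Control was -0.15 ± 0.13 (SE, adjusted p = 0.384). The difference of Ex from mTg was -0.27 ± 0.13 (SE, adjusted p = 0.116), and it passed the test without mTg replicate 1 (-0.36, adjusted p = 0.0351) or mTg replicate 2 (-0.36, adjusted p = 0.0328). The annotation has another protein-coding gene model overlapping *Ankrd23* (chr1:36530188-36536883) on the same strand, and the sources do not say how reads of overlapping models were assigned.

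The share of *Ankrd2* in the summed FPKM of the 3 ankyrin repeat genes was 14.4% ± 4.01 in Ex, 7.43% ± 1.49 in mTg and 5.35% ± 2.61 in Control. Ex libraries lay between 11.0% and 19.8%, above the highest mTg (8.46%) and the highest Control library (9.52%). The difference was 9.02 percentage points from Control and 6.94 from mTg (p = 0.00794 for both by exact permutation, adjusted p = 0.0179). With 1 of mTg replicates 1, 2, 4 or 5 left out, the adjusted p against mTg was 0.0536. Between mTg and Control it was 2.08 points (exact permutation test, p = 0.143, adjusted p = 0.257). *Ankrd23* made up 84.5% ± 3.87 of the sum in Ex, 91.9% ± 1.64 in mTg and 94.3% ± 2.63 in Control, and *Ankrd1* made up 1.14% in Ex, 0.667% in mTg and 0.312% in Control.

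**Figure D3:**
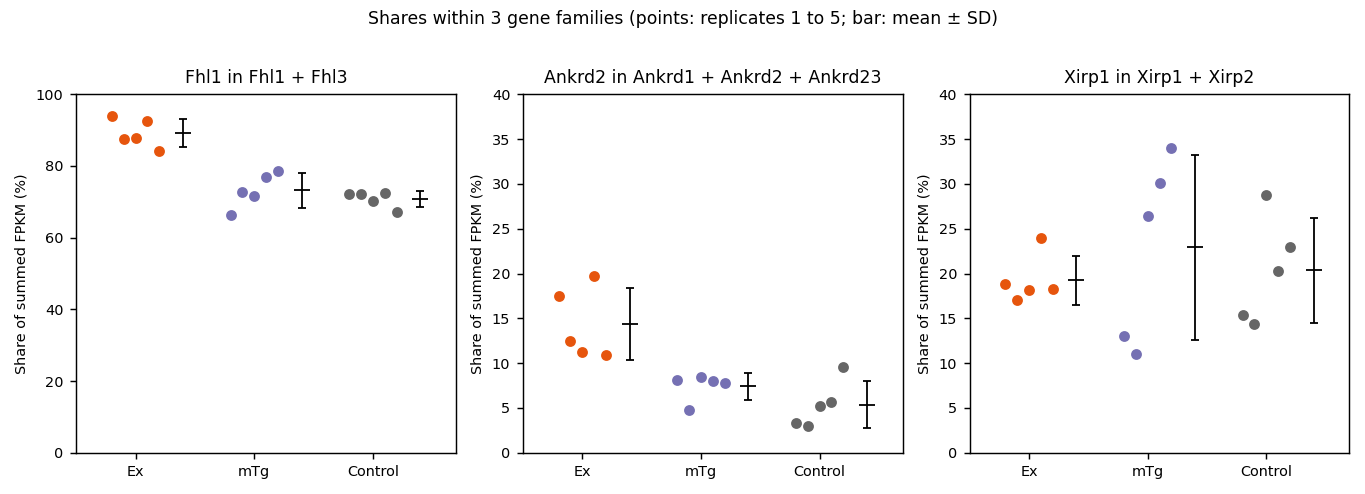
Shares of summed FPKM in percent (vertical axes) for *Fhl1* within the pair with *Fhl3*, *Ankrd2* within the 3 ankyrin repeat genes and *Xirp1* within the pair with *Xirp2*, in Ex, mTg and Control. Points are libraries and bars are means ± SD. All Ex libraries lie above all others for *Fhl1* (from 84.3%) and *Ankrd2* (from 11.0%), and the groups overlap for *Xirp1*.

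*Xirp1* and *Xirp2* encode the Xin actin-binding proteins, which gather at myotendinous junctions and at sites of filament damage. *Xirp1* was 47.9, 40.4, 41.1, 70.8 and 38.8 FPKM in Ex, 30.6, 24.7, 44.8, 61.9 and 91.2 in mTg and 34.3, 32.4, 73.3, 43.2 and 50.8 in Control. The libraries of a group differed by far more than the groups did. The differences were 0.06 ± 0.21 (SE, adjusted p = 0.905) in Ex and 0.02 ± 0.31 (SE, adjusted p = 0.963) in mTg against Control, with intervals from -0.41 to 0.52 and from -0.65 to 0.69. *Xirp2* ranged from 174 to 225 FPKM in Ex, 125 to 204 in mTg and 169 to 193 in Control, with a difference of 0.12 ± 0.07 (SE, adjusted p = 0.287) in Ex and -0.11 ± 0.12 (SE, adjusted p = 0.466) in mTg against Control. *Xirp1* was 19.2% ± 2.71 of the pair in Ex, 22.9% ± 10.3 in mTg and 20.4% ± 5.89 in Control, and none of its 3 share comparisons passed (exact permutation tests, p = 0.730 for Ex vs Control, 0.627 for mTg vs Control and 0.437 for Ex vs mTg). *Xirp1* (chr9:120013755-120023598) shares its strand and part of its span with *Cx3cr1*, a receptor gene of immune cells, and *Xirp2* (chr2:67446002-67526614) lies opposite an antisense gene. The kit keeps strand, but whether counting used it is not stated.

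*Flnc* (chr6:29433256-29461883) encodes filamin C, which cross-links actin at the Z-disc and is replaced under load with the help of the chaperone regulator BAG3. It was 192, 149, 142, 197 and 141 FPKM in Ex, 126, 117, 158, 170.0 and 206 in mTg and 98.9, 102, 142, 119 and 142 in Control. Ex replicates 1 and 4 were high, and the other Ex libraries lay near the 2 highest Control libraries. The mean was 1.36-fold higher in Ex than in Control (0.44 ± 0.13 (SE), adjusted p = 0.0492), which is just past the threshold. This call was lost without any 1 of 7 libraries (Ex replicates 1 to 4 and Control replicates 1, 2 and 4, adjusted p up to 0.109), without the filter on low levels (0.0509) and in a fit on all 15 libraries (0.0866). The mTg change of 0.35 ± 0.15 (SE, adjusted p = 0.0769) did not pass the test, but passed without mTg replicate 2 (0.45, adjusted p = 0.0262). Ex and mTg differed by 0.09 ± 0.15 (SE, adjusted p = 0.659).

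The calls for *Csrp3*, *Fhl1*, *Ankrd1* and *Ankrd23* in Ex against Control, and for *Csrp3* and *Fhl1* in Ex against mTg, held in every alternative run, each left-out library included. These are also the genes whose groups did not overlap. In Ex against Control 3 genes lay wholly higher and 1 wholly lower, beside 9.6% of all tested genes without overlap (4.92% higher, 4.69% lower). In Ex against mTg 2 lay wholly higher, beside 29.1% of all genes. In mTg against Control the groups overlapped for all 10, beside 32.3% of all genes without overlap.

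Within a group, the same libraries were often the highest or lowest for many of the 10 genes, a pattern noticed after their values were seen. In Ex, replicates 1 and 4 were the 2 highest libraries for 6 genes (*Csrp3*, *Fhl1*, *Ankrd2*, *Xirp1*, *Xirp2*, *Flnc*), as they were for 9.88% of all tested genes. In mTg, replicates 1 and 2 were the 2 lowest for 8 genes (all but *Fhl3* and *Xirp2*), as for 18% of all genes, and for *Xirp2* they were the 2 highest. In Control, replicate 5 was the highest for 6 genes (*Csrp3*, *Fhl1*, *Fhl3*, *Ankrd2*, *Flnc*, *Ldb3*), as for 28.7% of all genes. *Csrp3* spread most on the log2 scale in Ex, with replicate 1 at 0.97 above and replicate 5 at 0.86 below the group mean, and *Ankrd1* spread most in mTg, with replicate 5 at 1.52 above it. mTg replicate 2 lay 1.08 below the mean for *Csrp3* and 0.99 below for *Ankrd2*.

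**Figure D4:**
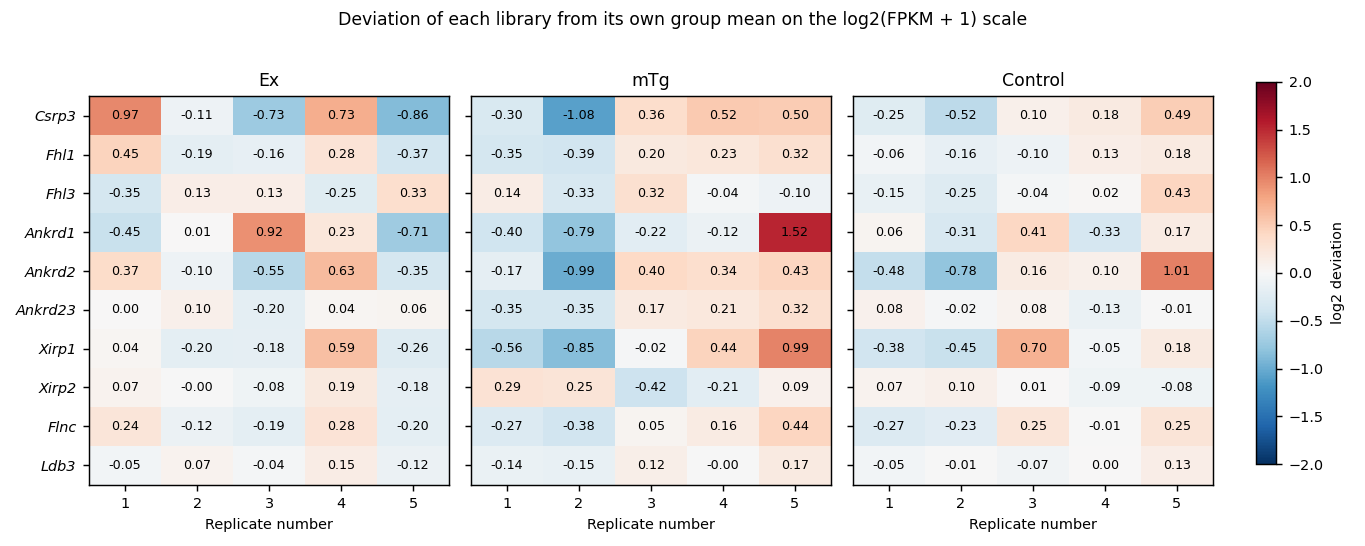
Deviation of each library from its group mean on the log2(FPKM + 1) scale (color and printed value) for the 10 genes (rows) and replicates 1 to 5 (columns) of Ex, mTg and Control. Red is above and blue below the mean. In Ex the columns of replicates 1 and 4 are red for *Csrp3* (0.97 and 0.73), *Fhl1* and *Ankrd2*, and in mTg the column of replicate 2 is blue for 9 of the 10 genes.

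Slow fiber genes moved with several of these genes. Of 11 such genes 7 rose and none fell in Ex against Control (5.39% and 5.02% of all tested genes). In Ex 10 were higher than in mTg (20.7% of all tested genes). *Sln*, encoding the calcium pump regulator sarcolipin, rose by 4.09 ± 0.32 (SE, adjusted p = 2.61e-05), and *Myl2*, encoding slow myosin light chain, by 1.81 ± 0.26 (SE, adjusted p = 0.00163). In mTg, only *Casq2*, encoding the slow and cardiac calsequestrin, rose (1.35 ± 0.13 (SE), adjusted p = 1.76e-06), and at an unadjusted p under 0.05 no further slow fiber gene did. With a library left out, 1 slow fiber gene was called lower in mTg (without Control replicate 2 or mTg replicate 1). The summed level of the 11 genes was 1193 to 1499.6 FPKM in Ex, 197 to 738 in mTg and 302 to 733 in Control. Within Ex the order differed from that of *Csrp3* and *Fhl1*: replicate 1, with the highest levels of both, had a slow fiber sum of 1200.3 FPKM, the second lowest in Ex, and replicate 4 had the highest. Within mTg, replicate 2 was lowest in the slow fiber sum (197 FPKM) and replicate 1 was highest (738 FPKM), while both were low in *Csrp3*, *Fhl1* and *Ankrd2*. Of 11 fast fiber genes, 8 fell and 1 rose in Ex, and 10 fell and 1 rose in mTg, against Control. This list shares genes with the skeletal muscle markers above. Over all tested genes 23.1% fell and 22.3% rose in mTg. The 8 that fell in Ex were 5 without Control replicate 1 or 4. The part of fiber type in the changes of the 10 genes was not tested.

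Among 18 titin and Z-disc partners, 4 rose and 2 fell in Ex against Control, beside 10.4% of all tested genes called. In mTg 3 rose and 11 fell, beside 45.4% of all tested genes called. In Ex the largest changes were in *Myoz2*, encoding the calcineurin-binding calsarcin of slow fibers (1.42 ± 0.15 (SE), adjusted p = 0.000263), *Actn2*, encoding the α-actinin of all fibers (0.95 ± 0.10 (SE), adjusted p = 0.000150), and *Cryab*, encoding a small heat shock protein that guards desmin and titin (0.62 ± 0.14 (SE), adjusted p = 0.0162). In mTg, *Myoz3*, *Actn3* (the α-actinin of fast fibers) and *Ttn* (titin itself) fell by 1.43, 1.27 and 0.81 on the log2 scale. *Ttn* was 129 ± 3.24 FPKM in Ex, 78.0 ± 9.37 in mTg and 137 ± 6.31 in Control (SD, n = 5 each), so that titin RNA was lower in mTg while the levels of the ankyrin repeat genes there were not shown to differ. On the TPM scale 1 of the list fell in Ex. The median log2 fold change of the list was 0.013 in Ex and -0.403 in mTg.

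Of 23 other LIM domain genes, 5 rose and none fell in Ex against Control (10.4% of all tested genes were called). In mTg 4 rose and 5 fell (45.4% of all tested genes were called). At an unadjusted p under 0.05, 7 were higher and 1 was lower in Ex, and voom called the same numbers as the main test (5 and 0), while 1 was called lower without Ex replicate 2. *Ablim1*, encoding an actin-binding LIM protein, rose by 1.25 ± 0.11 (SE, adjusted p = 7.03e-05), *Pdlim1*, encoding a PDZ-LIM protein, by 0.91 ± 0.12 (SE, adjusted p = 0.000803), and *Fhl2*, the heart paralog of *Fhl1*, by 0.65 ± 0.10 (SE, adjusted p = 0.00211), although it remained low at 1.75 ± 0.412 FPKM in Ex, against 1.03 ± 0.262 in mTg and 0.739 ± 0.166 in Control. In mTg, *Pdlim3* and *Pdlim7*, encoding PDZ-LIM proteins of the Z-disc, fell by 1.25 and 1.07 on the log2 scale. In Ex they differed from Control by 0.05 ± 0.06 (SE, adjusted p = 0.654) for *Pdlim3* and -0.19 ± 0.07 (SE, adjusted p = 0.101) for *Pdlim7*.

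In a list of 12 genes on filamins and their turnover, 4 rose and 1 fell in Ex against Control (10.4% of all tested genes were called). In mTg 2 rose and 5 fell (45.4% of all tested genes were called). *Klhl40* and *Klhl41*, encoding kelch proteins that stabilize thin filament proteins, rose in Ex by 0.49 ± 0.07 (SE, adjusted p = 0.00118) and 0.38 ± 0.06 (SE, adjusted p = 0.00170), and fell in mTg by 0.39 and 0.61 on the log2 scale. The test of Ex against mTg gave 0.99 ± 0.07 (SE, adjusted p = 2.12e-07) for *Klhl41*. *Bag3* rose in Ex (0.32 ± 0.08 (SE), adjusted p = 0.0207) and in mTg (0.60 ± 0.11 (SE), adjusted p = 0.000654), and its call in Ex was lost without Control replicate 1, 3 or 4 (adjusted p of 0.0505, 0.0503 and 0.0514). Without Control replicate 2 or Ex replicate 5, 2 of the list fell in Ex, without mTg replicate 1, 4 rose in mTg, and in a fit on all 15 libraries 2 rose in Ex. *Asb2*, encoding the ubiquitin ligase subunit that marks filamins for breakdown, fell in both, by 0.51 in Ex and 0.48 in mTg.

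Of 16 genes of load-responsive transcription (YAP, TAZ and TEAD factors, serum response factor and its cofactors, and targets), none was called in Ex against Control by limma (10.4% of all tested genes were) or voom, and 2 were higher at an unadjusted p under 0.05. On the TPM scale, and without Control replicate 2, 1 was called higher. In mTg 1 rose and 5 fell, beside 22.3% of all tested genes higher and 23.1% lower. Among the 5 were *Ctgf*, a YAP target (-1.22 ± 0.30 (SE), adjusted p = 0.00521), *Tead4* (-0.61 ± 0.09 (SE), adjusted p = 0.000132) and *Tead1* (-0.52 ± 0.11 (SE), adjusted p = 0.00174). The change of *Ankrd1*, itself known as a YAP target, was 0.74 ± 0.34 (SE) there and did not pass the test (limma, adjusted p = 0.0883). It was 0.36 without mTg replicate 5. The 1 called higher in mTg was lost with any 1 of Control replicates 1, 4 and 5 and mTg replicates 3 to 5 left out. Of 4 genes of MuRF ubiquitin ligases and titin kinase partners, 2 fell in Ex and 1 in mTg, against Control. *Trim63*, encoding MuRF1, which binds titin at the M-band, fell in Ex (-0.50 ± 0.09 (SE), adjusted p = 0.00485) and in mTg (-1.13 ± 0.07 (SE), adjusted p = 6.13e-08). *Trim54*, encoding MuRF3, fell in Ex (-0.35 ± 0.09 (SE), adjusted p = 0.0273), a call that was lost with any 1 of Control replicates 3 and 4 and Ex replicates 1 to 4 left out (adjusted p up to 0.0647). In mTg 2 of the list fell on the TPM scale and 3 without mTg replicate 1.

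Markers of other cells and states were set beside these results, with 10.4% of all tested genes called in Ex and 45.4% in mTg against Control. Of 7 regenerating fiber markers, *Myh3* (embryonic myosin, 0.975 ± 0.426 FPKM in Ex, against 0.398 ± 0.0913 in Control) and *Ncam1* (1.70 ± 0.359 against 0.928 ± 0.104) rose in Ex. The call for *Myh3* was lost without Control replicate 4 (limma, adjusted p = 0.0546). None was called higher in Ex without the genes under 2 FPKM, but that filter removes *Myh3* and *Ncam1* themselves and so cannot test their calls. At an unadjusted p under 0.05, 4 were higher and 1 was lower in Ex. In mTg *Myh3* rose (0.612 ± 0.122 FPKM), and 2 fell (*Cdkn1a*, *Ncam1*). That call for *Myh3* was lost in a fit on all 15 libraries (limma, adjusted p = 0.123). It was also lost with any 1 of Control replicates 2 to 5 and mTg replicates 1, 2 and 4 left out (limma, adjusted p up to 0.0799). The summed level of the 7 markers was 31.8 to 40.4 FPKM in Ex, 19.7 to 31.7 in mTg and 27.5 to 36.4 in Control. None of 10 macrophage markers was called in Ex against Control, also at an unadjusted p under 0.05 and with voom, with sums of 92.0 to 159 FPKM in Ex and 90.7 to 131 in Control, and 1 was called without Ex replicate 5. In mTg 3 of them rose, with sums of 113 to 190.1 FPKM, and 1 did with any 1 of Control replicates 1 and 4 and mTg replicates 3 and 4 left out. Of 8 endothelial markers 4 rose in Ex and 7 in mTg, with sums of 174 to 209 FPKM in Ex, 199 to 266 in mTg and 129 to 164 in Control. The count in Ex was 2 with any 1 of Control replicates 3 and 4 and Ex replicates 1 to 3 left out, and in a fit on all 15 libraries. Of 7 tendon markers none was called in Ex, 2 being lower at an unadjusted p under 0.05 and none called by voom, but 1 called lower without Control replicate 1. *Scx* fell in mTg (-0.90 ± 0.14 (SE), adjusted p = 0.000166), and 2 did without mTg replicate 4. Of 8 fibroblast markers none was called in Ex by limma or voom, 2 being higher at an unadjusted p under 0.05, and 1 was called higher on the TPM scale and 2 without Ex replicate 5. In mTg 2 fibroblast markers rose and 1 fell. Those that rose were 1 in a fit on all 15 libraries and with any 1 of Control replicates 1 to 4 and mTg replicates 3 to 5 left out, and 4 without mTg replicate 1, and those that fell were 2 without Control replicate 1 or mTg replicate 4. Of 8 smooth muscle and pericyte markers 2 rose and 2 fell in Ex, and 5 rose and none fell in mTg. Only 1 rose in Ex in a fit on all 15 libraries and with any 1 of Control replicates 1 to 4 and Ex replicates 1 to 3 left out. Neither of the heart markers was called in any comparison by limma or voom, with 1 lower in Ex than in Control at an unadjusted p under 0.05, but 1 was called lower in Ex without Control replicate 2 and without the genes under 2 FPKM, and in mTg without mTg replicate 1. The part of these cells in the changes of the 10 genes was not tested.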

How the data were processed

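Polyadenylated RNA of quadriceps was sequenced from 5 Ex, 5 mTg and 5 Control libraries with a stranded kit. FPKM per gene and library were deposited by the authors, who mapped reads with STAR (build mm10) and compared groups with DESeq2, for which the submitters' processing notes give 1.1.0 as version. The sources used here name no annotation, counting tool or treatment of multi-mapping reads. The deposited tables of changed genes hold fold changes and p-values of the authors' own comparisons and were not used. Whether the Ex and mTg columns share 1 normalization was not checked, and scaling by the median of ratios was run as an alternative.

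FPKM were tested as log2(FPKM + 1), which understates changes of weakly expressed genes, for the 11674 genes averaging 0.5 FPKM or more. For each comparison limma 3.58.1 (R 4.3.3, trend, two-sided) was fitted to the 10 libraries concerned, adjusted by Benjamini-Hochberg over all tested genes, with a threshold of 0.05. Fold changes carry SE, and means carry SD. Shares were compared with exact permutation tests. Whole reads were recovered from FPKM steps for all 12529 genes (tolerance 0.01 reads) and used for limma voom. The value of 1 read relative to the first library was the commonest ratio among the 1880 lowest genes, which led the next ratio by at least 1.62-fold in every library. Between replicates of a group, chi-square per gene was 4.59 to 27.3, so no library was a copy of another in its group. Libraries of different groups were not compared in this way. Alternatives were the pseudocount (0.1), the filter (none, or 2 FPKM), TPM, median-of-ratios scaling, all 15 libraries, a replicate block, voom and leaving out each library.

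The 10 genes and the other gene lists were chosen with earlier results of these data known. All 10 genes are named, and of each other list up to 4 called genes with the largest change in a comparison, any other being said to be chosen after its values were seen. Alternatives for the other lists were added after seeing the data.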

Additional observations from a re-analysis of the deposited data

Results flagged for a closer look

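In 39 groups of 5 libraries, 4 held a library whose gap to the nearest other was large for the group's range. Chance flags about 1 group in 20. *Ankrd1* in mTg replicate 5 was 29.1 FPKM, and the next mTg library was at 8.64. *Xirp1* in Ex replicate 4 was 70.8 FPKM, against 47.9 for the next Ex library. The share of *Xirp1* in the pair with *Xirp2* was 24.0% in the same library, with the next at 18.8%. The share of *Ankrd2* in the summed FPKM of the 3 ankyrin repeat genes was 4.80% in mTg replicate 2, and the next lowest mTg library was at 7.78%. The causes were not tested.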

How the results depend on the processing

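Member fold changes kept their direction and their side of the threshold in 230 of the runs with another setting and 243 of those with a library left out. They lost the call in 6 and 34 runs, gained it in 4 and 6, and changed sign in 0 and 17. With 1 library left out, genes called in Ex against Control numbered 755 to 1442, genes of the 10 called higher 3 to 5, in mTg against Control 0 to 3 higher and 0 to 1 lower, and in Ex against mTg 2 to 5 higher and 0 to 1 lower. Sign changes were all in genes that had not passed: *Fhl3* (-0.0734 to 0.12) and *Xirp1* (-0.0935 to 0.23) in Ex against Control, *Xirp1* (-0.23 to 0.23) in mTg against Control, and *Xirp1* (-0.18 to 0.28) and *Flnc* (-0.0039 to 0.20) in Ex against mTg. The *Xirp1* share differed by -2.60 to 1.0005 points in Ex and -0.193 to 5.54 in mTg against Control, and the *Ankrd2* share of Ex against mTg by 5.58 to 7.79 (exact permutation tests, adjusted p up to 0.0536). Leaving out a library lowers the number of samples; other causes were not tested.

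Same-numbered libraries were not paired by any label. Correlations of their deviations were -0.081 to 0.189 for Ex and Control, -0.216 to 0.148 for mTg and Control and -0.192 to 0.044 for Ex and mTg, and 2, 2 and 0 of 10 libraries were best matched by their own number. With the replicate number as a block, 3 of the 10 genes were called higher in mTg (*Ankrd1*, *Ankrd2*, *Flnc*), and *Flnc* in Ex (0.0883) and *Ldb3* in Ex against mTg (0.0824) lost their calls. With the block, sign-flip tests of the share differences (9.02 and 6.94 for *Ankrd2*, 18.3 and 16.0 for *Fhl1*) cannot go below p = 0.0625 by exact permutation, adjusted p = 0.141. It changed no other call of a member, and with it 5 slow fiber genes were called lower in mTg, and in Ex against Control 2 fast fiber genes, 1 tendon marker, 1 titin or Z-disc partner and 2 genes on filamins were called lower and 2 fibroblast markers and 1 smooth muscle marker higher. Depth set no floor, as each of the 10 genes had at least 109 reads in every library.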
